A study of Homo sapiens with 4 samples.

Results

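The interleukin, chemokine and chemokine receptor genes of HCT116 cells, a human cell line from a colorectal carcinoma, are described here under a replication block, under HDAC inhibition and under both. The genes were chosen by symbol, as those beginning with TNFRSF, TNFSF, IL and a digit, CXCL, CCL or CCR and a digit. Earlier results of these data were known when this choice was made. Of the 14884 genes with a name on the arrays, 101 have such a symbol. They are 52 interleukin-type symbols, 36 chemokine ligands (1 of them the readthrough transcript CCL15-CCL14), 8 CCR receptors and 5 noncoding transcripts named after a neighbouring gene. Although TNF family symbols were part of the choice, 0 clusters were named for a TNFRSF or TNFSF protein-coding gene. The death receptors, the decoy receptors and their ligands with such symbols are therefore not analysed here, and TNFRSF10A-DT and TNFRSF14-AS1, both noncoding, are the TNF-type symbols that remain.

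One culture was left untreated, and the others received hydroxyurea (1 mM), MS-275 (2 µM) or MS-275/hydroxyurea at these doses, each for 24 h. Hydroxyurea inhibits ribonucleotide reductase and so stalls replication forks, and MS-275 (entinostat) is a benzamide inhibitor of class I HDACs. RNA of each of the 4 conditions was hybridised to 1 Affymetrix Human Gene 2.0 ST array, which probes transcripts along their length. There is no replicate array, so no p-value is given and no difference has been set against a replicate error. Intensities are RMA values on a linear scale, and log2 differences were taken with no offset. A transcript cluster is the array's unit for 1 gene. Where a symbol had several, the brightest was used, which concerned 2 of the 101 genes, both noncoding. A gene passed the filter on dim genes where its geometric mean over the 4 arrays (the mean of its log2 values) reached 90.5. This is the median over the named clusters. The intensities of different genes rest on different probes, so their order and their sums are on the array's scale and are not read as an order of expression. HCT116 is 1 tumour line cultured without immune cells. Of the colon epithelium markers, EPCAM had intensities of 865 to 1152 and KRT18 of 1646 to 2090, whereas CDX1, CDX2, VIL1 and KRT20 did not pass the filter, and the 8 named markers summed to 3804 to 4532. Of 14 leukocyte markers, 6 had a named cluster and CD68 alone of these passed it, with a summed intensity of the 6 between 453 and 568. CD68 had 177, 243, 231 and 284 in untreated, hydroxyurea-, MS-275- and MS-275/hydroxyurea-treated cells, and its part in the results was not tested. Of 8 stroma and endothelium markers, 4 were named and 0 passed. From bulk RNA, fewer cells with a transcript and less of it per cell cannot be told apart.

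Interleukins and chemokines are secreted messengers that recruit and instruct cells, mainly those of the immune system. Epithelial tumour cells make some of them and carry receptors for others. IL-17 receptors act as pairs in which IL17RA is the shared chain and signal to NF-κB. Receptors of the IL-1 family use the adaptor MYD88 and the IRAK kinases, while receptors of IL-4, IL-6, IL-7 and IL-15 signal through JAK kinases and STAT factors. Many chemokine genes carry NF-κB sites close to their start.

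Few of these genes were bright enough to pass the filter in HCT116 cells. The filter was passed by 14 of the 101 genes (13.9%), as against 7649 of 14884 named genes (51.4%). The 14 were 7 of 19 interleukin receptor chains (IL17RA, IL17RB, IL17RC, IL17RD, IL17RE, IL4R and IL6R), 2 of 27 interleukins (IL18 and IL11) and 2 of 13 CXC chemokines (CXCL16 and CXCL2). To these came the IL-18 inhibitor gene IL18BP, the amino acid oxidase gene IL4I1 and TNFRSF10A-DT. Of 22 CC chemokines and 8 CCR receptors, 0 passed. On all 4 arrays, 13 of the 14 genes reached the filter intensity, the exception being IL17RC, which had a geometric mean of 96.2. The first gene below the filter was IL9R, with a geometric mean of 90.2. In 8 of the 14 genes, the highest and the lowest array differed by less than 1.5-fold. Over the 5 comparisons, 3 of the 14 passed 1.5-fold, namely IL17RB, IL17RD and IL18, and 11 did not.

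**Figure D1:**
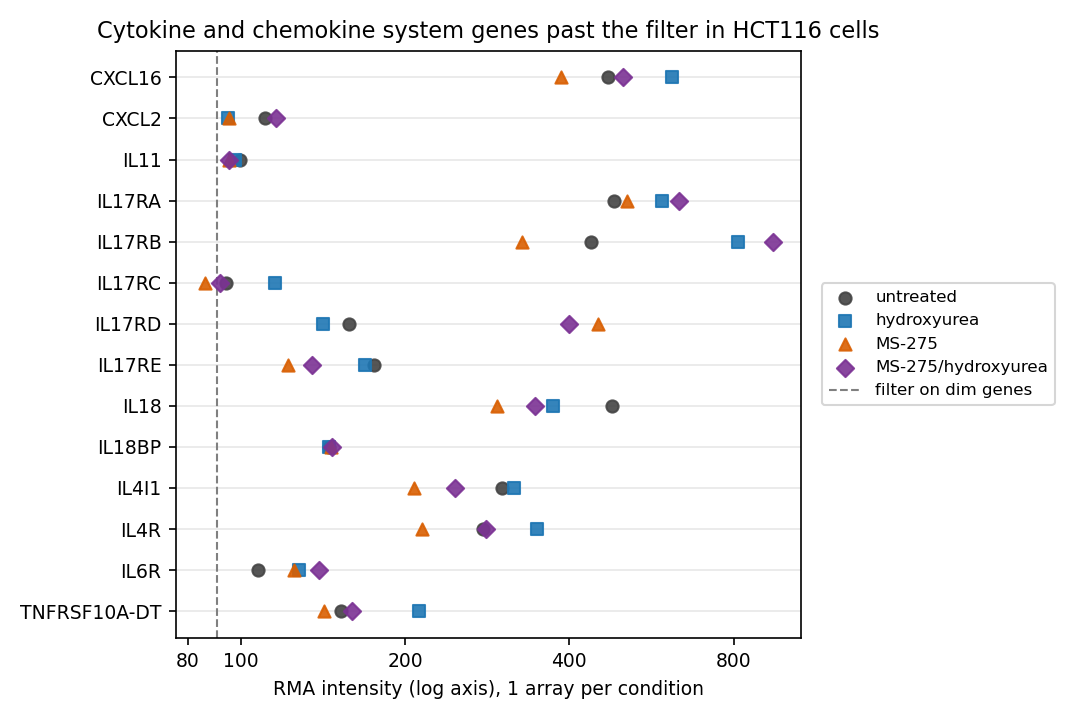
RMA intensity (log axis) of the 14 genes past the filter, with 1 point for each of the 4 arrays and the filter intensity of 90.5 as a dashed line. IL17RB is separated by hydroxyurea and IL17RD by MS-275, while the 4 points of IL18BP lie between 145 and 147.

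Among the genes past the filter, the IL-17 receptor family contained both that differed by 1.5-fold in the presence and in the absence of the other drug. IL17RD was higher with MS-275, and IL17RB was higher with hydroxyurea. IL17RB pairs with IL17RA to form the receptor of IL-25. IL17RD, also known as SEF, is an inhibitor of FGF receptor signalling to ERK. Both lie on chromosome 3, as do IL17RC and IL17RE, which did not reach 1.5-fold in any comparison. The RefSeq promoter regions of these genes (GRCh38.p14, 250 bases before to 50 after an annotated start) are shown because IL17RB and IL17RD are the genes that carry these differences, and whether the regions play a part was not tested. Capitals mark GC boxes (GGGCGG on either strand), the binding motif of SP1-type factors.
IL17RB (chr3:53846318-53846617, plus strand): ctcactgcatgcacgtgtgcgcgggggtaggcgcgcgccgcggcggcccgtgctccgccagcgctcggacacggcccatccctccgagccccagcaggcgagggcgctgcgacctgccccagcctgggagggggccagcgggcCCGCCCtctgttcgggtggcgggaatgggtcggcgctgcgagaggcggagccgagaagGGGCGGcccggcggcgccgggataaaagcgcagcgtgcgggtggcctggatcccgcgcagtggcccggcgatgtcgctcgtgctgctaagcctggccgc
IL17RD, upstream start (chr3:57170268-57170567, minus strand): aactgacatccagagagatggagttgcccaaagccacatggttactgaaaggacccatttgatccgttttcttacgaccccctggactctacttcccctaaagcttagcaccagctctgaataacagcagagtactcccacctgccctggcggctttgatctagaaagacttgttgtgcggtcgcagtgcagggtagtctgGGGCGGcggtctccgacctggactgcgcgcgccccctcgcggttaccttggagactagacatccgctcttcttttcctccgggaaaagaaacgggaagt
IL17RD, downstream start (chr3:57165304-57165603, minus strand): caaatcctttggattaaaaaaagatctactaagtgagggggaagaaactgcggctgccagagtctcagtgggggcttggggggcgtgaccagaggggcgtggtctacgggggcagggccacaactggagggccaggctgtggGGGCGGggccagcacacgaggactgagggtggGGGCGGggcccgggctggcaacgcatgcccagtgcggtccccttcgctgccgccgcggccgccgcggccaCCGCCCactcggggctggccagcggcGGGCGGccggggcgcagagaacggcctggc
The IL17RB region holds 2 GC boxes and 42 CG dinucleotides. For IL17RD, the entry that starts further upstream holds 1 GC box and 16 CG dinucleotides, and the other holds 4 and 25. The median of all 35116 promoter regions of this length is 14 CG dinucleotides, and 45.0% of them hold a GC box. A match of these letters describes the sequence and is not evidence of a bound factor.

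IL17RD had an intensity of 158 in untreated cells, 142 after hydroxyurea, 451 after MS-275 and 400 after the combination. Both arrays of cells with MS-275 were thus above both arrays of cells without it. MS-275 went with a 2.85-fold higher intensity without hydroxyurea and a 2.82-fold higher one with hydroxyurea. These comparisons share no array. With hydroxyurea IL17RD was 1.11 times lower without MS-275 and 1.13 times lower with it. The log2 difference with both drugs was nearly the sum of those with each, the non-additivity (what remains after both single-drug differences are subtracted) being -0.01. IL17RD is the 1 gene of the 14 counted as higher with MS-275 in both backgrounds, as are 4.85% of all genes past the filter. As lower in both, 0 of the 14 were counted, beside 2.92% of all genes.

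IL17RB followed the other drug. Intensities of IL17RB were 437 in untreated cells, 813 after hydroxyurea, 327 after MS-275 and 943 after the combination. Both arrays of cells with hydroxyurea exceeded both without it. Hydroxyurea went with a 1.86-fold higher intensity without MS-275 and a 2.88-fold higher one with it, log2 differences of 0.89 and 1.53. MS-275 went with a 1.34 times lower intensity in the absence of hydroxyurea and was at 1.16-fold in its presence. Non-additivity was 0.63 on the log2 scale. Among the 14 genes, IL17RB is the 1 counted as higher with hydroxyurea in both backgrounds, beside 1.36% of all genes past the filter. As lower in both, 0 of the 14 and 0.275% of all genes were counted.

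The other chains of the family varied less. IL17RA had intensities of 482, 590, 509 and 635 in untreated, hydroxyurea-, MS-275- and MS-275/hydroxyurea-treated cells. Both values with hydroxyurea were above both without it, by 1.22-fold and 1.25-fold, and neither reached 1.5-fold. IL17RC, which joins IL17RA in the receptor of IL-17A and IL-17F, had intensities of 94.1, 115, 85.9 and 91.7. IL17RE, the receptor chain for IL-17C, had 176, 169, 122 and 135 in the same order. It was lower on both arrays with MS-275, by 1.44 times without and 1.25 times with hydroxyurea. IL17REL, a receptor-like member, did not pass the filter and reached its intensity with MS-275 alone, at 93.6. None of the 6 ligand genes of the family (IL17A, IL17B, IL17C, IL17D, IL17F and IL25) passed it, and their intensities lay between 13.6 and 97.7.

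**Figure D2:**
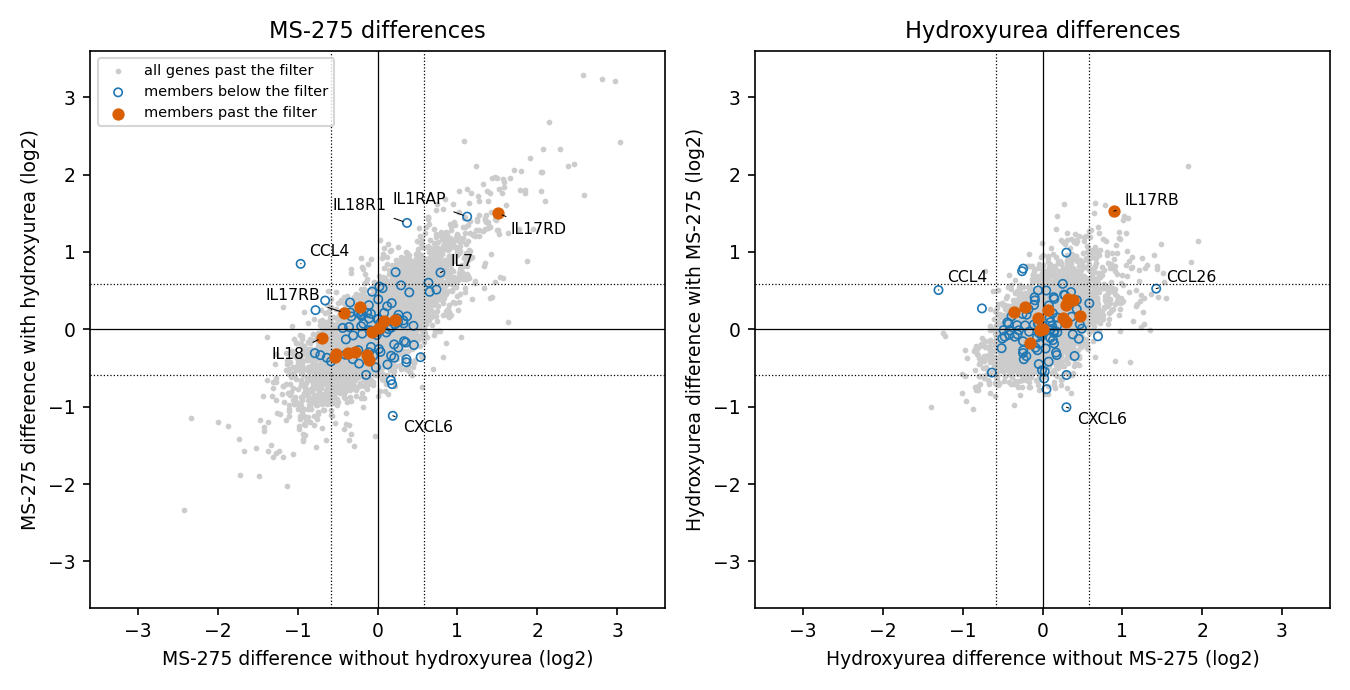
Log2 difference with MS-275 without (x axis) and with hydroxyurea (y axis) on the left, and with hydroxyurea without and with MS-275 on the right, with dotted lines at 1.5-fold. Orange points are the 14 genes past the filter, open circles the 87 below it and grey points all 7649 genes past it. IL17RD is 2.85-fold and 2.82-fold higher with MS-275 on the left and IL17RB lies at 0.89 and 1.53 on the right.

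IL18 was the 1 gene of the 14 counted as lower with a drug, namely with MS-275 alone. It encodes an IL-1 family cytokine that epithelia store as a precursor. The intensities were 479 in untreated cells, 374 after hydroxyurea, 295 after MS-275 and 346 after the combination. All 3 treatments were below untreated cells, and MS-275 alone was the lowest. IL18 was 1.62 times lower with MS-275, 1.28 times lower with hydroxyurea and 1.39 times lower with both. With hydroxyurea present, MS-275 went with a 1.08 times lower value, which does not reach 1.5-fold. The non-additivity of IL18 was 0.59.

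Other genes of the IL-18 system, and the IL-1 receptor gene IL1RAP outside it, showed different patterns. IL18BP, which encodes the secreted inhibitor of IL-18, had intensities of 145, 145, 146 and 147, the smallest span of the 14 genes at 1.01-fold between arrays. IL18R1, the ligand-binding receptor chain, did not pass the filter, with intensities of 58.4, 48.9, 75.3 and 127. Its highest value was that with MS-275/hydroxyurea, where it passed the filter intensity, and it was 2.17-fold above untreated cells and 2.59-fold above hydroxyurea alone. IL18RAP, the accessory chain, stayed between 15.2 and 20.2. IL1RAP, the accessory chain of the IL-1 and IL-33 receptors, had 30.03 in untreated cells, 35.8 after hydroxyurea, 65.4 after MS-275 and 98.2 after the combination. It was 2.18-fold higher with MS-275 without hydroxyurea and 2.74-fold higher with it. Both arrays with MS-275 were above both without it. Since IL18R1 and IL1RAP were dim on most arrays, how large their folds are is uncertain.

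IL4R and IL6R, the receptor chains past the filter that signal through JAK kinases, differed by less than 1.5-fold in each drug comparison. Below the filter, IL31RA, a chain of the IL-31 receptor, was 1.58-fold higher with MS-275/hydroxyurea than in untreated cells, at 59.0 against 37.3. IL4R, the shared chain of the IL-4 and IL-13 receptors, had intensities of 278, 349, 215 and 281 in untreated, hydroxyurea-, MS-275- and MS-275/hydroxyurea-treated cells. It was 1.30 times lower with MS-275 without hydroxyurea and 1.24 times lower with it, and hydroxyurea went with 1.25-fold and 1.31-fold higher values. IL6R, the ligand-binding chain of the IL-6 receptor, had 108, 128, 125 and 139, so that untreated cells were the lowest. IL4I1, whose product is a secreted L-amino acid oxidase and not a cytokine, had 301, 317, 208 and 247. Both arrays with MS-275 were below both without it, by 1.45 and 1.28 times. IL11, a cytokine of the IL-6 family, lay between 95.04 and 99.8. IL7, a growth factor of lymphocytes, did not pass the filter. Its intensities were 37.2, 50.2, 64.3 and 83.4, and MS-275 went with 1.73-fold and 1.66-fold higher values. With an offset of 32 before log2 these IL7 differences were 0.48 and 0.49 on the log2 scale and no longer passed 1.5-fold.

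Of the chemokines, CXCL16 and CXCL2 passed the filter. CXCL16, a membrane-bound ligand of CXCR6, had an intensity of 471 in untreated cells, 615 after hydroxyurea, 385 after MS-275 and 501 after the combination. It was 1.31-fold and 1.30-fold higher with hydroxyurea and 1.22 and 1.23 times lower with MS-275. Both drugs together were at 1.06-fold of untreated cells. CXCL2, a neutrophil attractant, had 111, 94.8, 95.4 and 116, with the single-drug arrays the lowest. The remaining 11 CXC chemokines lay between 6.84 and 61.4. CXCL8, another neutrophil attractant, was among these with 27.1, 29.6, 35.6 and 41.2.

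A form of the NF-κB site, GGG followed by 2 bases of any kind and TTTCC, was searched on both strands of the promoter regions. Of the 101 genes, 75 had at least 1 RefSeq promoter, with 111 entries in all. The motif was in 11 of the 111 entries (9.91%), which belong to 10 genes, and in 1.91% of all 35116 promoter regions. It was in 4 of 13 entries of CXC chemokines, which are printed here because the motif has the same letters in all 4, as 30 bases of GRCh38.p14 with the motif in capitals.
CXCL2 (chr4:74099254-74099283, minus strand): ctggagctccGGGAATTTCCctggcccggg
CXCL3 (chr4:74038749-74038778, minus strand): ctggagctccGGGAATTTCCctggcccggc
CXCL5 (chr4:73998749-73998778, minus strand): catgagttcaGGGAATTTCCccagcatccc
CXCL6 (chr4:73836578-73836607, plus strand): cctgagttcaGGGAATTTCCccagcatccc
The motif reads GGGAATTTCC in all of these and begins 78 bases before the annotated start in CXCL2, 79 in CXCL3, 91 in CXCL5 and 90 in CXCL6. CXCL2 and CXCL3 have closely related sequences, as do CXCL5 and CXCL6, and their probes may share signal. CXCL3 had intensities of 24.5, 26.0, 23.2 and 25.7, and CXCL5 had 48.9, 49.9, 56.5 and 38.7. CXCL6 had 12.1, 14.8, 13.7 and 6.84. None of the 3 passed the filter, and of the 4 genes CXCL2 alone did.

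CC chemokines and their receptors were dim, and CCL22 alone reached the filter intensity on an array, at 92.9 after the combination. The 22 CC chemokines lay between 7.597 and 92.9, the 8 CCR receptors between 13.4 and 63.6. CCL26 (eotaxin-3), an eosinophil attractant, had the largest difference between hydroxyurea and untreated cells among the genes below the filter. Its intensities were 31.6 in untreated cells, 84.7 after hydroxyurea, 45.9 after MS-275 and 66.0 after the combination. It was 2.68-fold higher with hydroxyurea without MS-275 and 1.44-fold higher with it. CCL4, a monocyte attractant, was 2.47 times lower with hydroxyurea and 1.95 times lower with MS-275, with intensities of 39.2, 15.9, 20.1 and 28.5. After the combination, CXCL6 was 2.01 times lower than after MS-275 alone. With an offset of 32 before log2 these differences were -0.57 and -0.45 for CCL4 and -0.24 for CXCL6 on the log2 scale, and none passed 1.5-fold. CCL26, CCL4, CXCL6, IL18R1, IL1RAP and IL7 are the 6 of 87 dim genes (6.90%) that passed 2-fold in any comparison, beside 312 of all 7235 dim genes (4.31%). CCL3 and CCL3L1 are near-identical copies whose probes cannot be told apart with certainty, and they are not described singly.

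**Figure D3:**
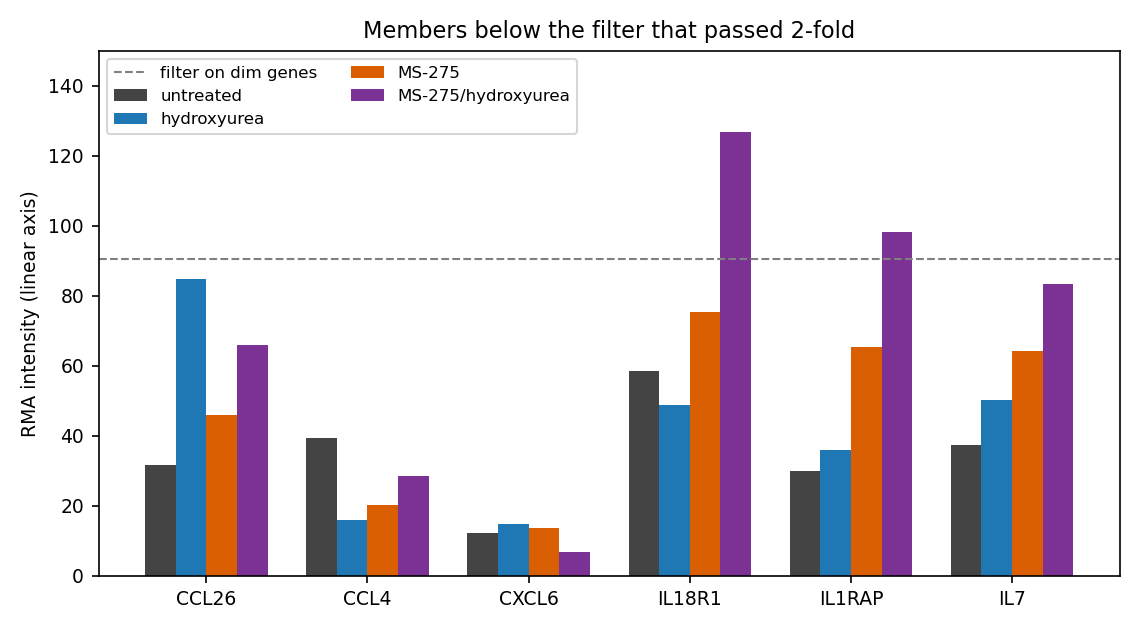
RMA intensity (linear axis from 0) of the 6 genes below the filter that passed 2-fold, with 1 bar per array and the filter intensity of 90.5 as a dashed line. IL18R1 and IL1RAP cross the line with MS-275/hydroxyurea, at 127 and 98.2.

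Across the 14 genes past the filter, the counts in each comparison were small and are set beside all 7649 genes. With hydroxyurea against untreated cells, 1 was at least 1.5-fold higher (IL17RB) and 0 lower, beside 3.12% and 1.27% of all genes. With MS-275, 1 was higher (IL17RD) and 1 lower (IL18), beside 6.94% and 6.84%. After MS-275/hydroxyurea, 2 were higher than in untreated cells (IL17RD at 2.53-fold and IL17RB at 2.16-fold) and 0 lower, beside 11.7% and 6.84%. When MS-275 was added to hydroxyurea, 1 was higher (IL17RD) and 0 lower, beside 8.67% and 5.41%. When hydroxyurea was added to MS-275, 1 was higher (IL17RB) and 0 lower, beside 4.84% and 1.03%. With counts of 0 to 2 of 14 genes, nothing particular to these genes is read from them.

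The median log2 differences of the 14 genes lay between -0.17 and 0.20 and were not tested. For hydroxyurea they were 0.16 without MS-275 and 0.20 with it, beside 0.01 and 0.03 over all genes. Added to MS-275, hydroxyurea went with a value above 0 in 12 of the 14 genes, and without MS-275 in 9 of the 14, beside 54.5% and 52.6% of all genes past the filter. For MS-275 the medians were -0.17 without hydroxyurea and -0.08 with it, beside -0.01 and 0.00. MS-275 went with a value above 0 in 4 of the 14 genes without hydroxyurea and in 6 with it. The shares of all genes past the filter were 48.7% and 50.1%. For MS-275/hydroxyurea against untreated cells the median was 0.04, beside 0.01. Among the 87 genes below the filter, 6 passed 1.5-fold in either direction with hydroxyurea, 11 with MS-275 and 18 with both drugs, against untreated cells. The shares of all dim genes were 6.04%, 7.33% and 9.72%. For MS-275 added to hydroxyurea and hydroxyurea added to MS-275, 10 and 8 of the 87 passed, beside 10.8% and 5.25%. Medians of the 87 lay between -0.02 and 0.03 in the 5 comparisons.

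TNFRSF10A-DT is a noncoding transcript that starts next to the TRAIL receptor gene TNFRSF10A and runs away from it. It had intensities of 152, 212, 142 and 160 in untreated, hydroxyurea-, MS-275- and MS-275/hydroxyurea-treated cells. The hydroxyurea array was the highest, 1.39-fold above untreated cells, and no comparison reached 1.5-fold. TNFRSF10A-DT has 2 clusters, of which the brighter is described. With the mean of its clusters, the log2 difference of MS-275 against untreated cells was 0.10 instead of -0.10. That of hydroxyurea against untreated cells was 0.38 instead of 0.48. The receptor's own transcript is not analysed here. TNFRSF14-AS1 did not pass the filter.

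TNF superfamily genes with other kinds of symbol were taken from a separate list of 15, of which 8 had a named cluster and 3 passed the filter. NGFR, the p75 neurotrophin receptor with a death domain, had intensities of 80.3 in untreated cells, 133 after hydroxyurea, 223 after MS-275 and 357 after the combination. Each treatment was above untreated cells, with MS-275 differences of 2.78-fold and 2.69-fold and hydroxyurea differences of 1.65-fold and 1.60-fold. Untreated cells were below the filter intensity, and NGFR passed through the arrays where it was high, so the size of its folds over them is uncertain. EDA, the ectodysplasin ligand, had 96.2, 89.7, 149 and 163 in the same order. It was 1.55-fold and 1.81-fold higher with MS-275, and its hydroxyurea array was below the filter intensity. RELT did not reach 1.5-fold, and TNF itself did not pass the filter. NGFR and EDA, higher with MS-275 in both backgrounds, are 2 of 3 genes, beside 4.85% of all genes past the filter. NGFR, higher with hydroxyurea in both, is 1 of 3, beside 1.36%. Counts this small are not read as particular to the list.

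Downstream of death receptors, 10 of 19 listed genes of the extrinsic apoptosis pathway had a named cluster and 8 of these passed the filter. CFLAR, which encodes the caspase-8 inhibitor c-FLIP, had intensities of 125, 159, 57.8 and 77.7. It was 2.16 times lower with MS-275 without hydroxyurea and 2.05 times lower with it, and both arrays with MS-275 were below both without it. Both were also below the filter intensity, so CFLAR passed through the arrays where it was high and the size of its fold is uncertain. CYLD, a deubiquitinase that restrains NF-κB, was 1.60-fold and 1.92-fold higher. FADD, the adaptor that recruits caspase-8, was at 1.07-fold and 1.10-fold. CYLD higher and CFLAR lower in both backgrounds are 1 of 8 genes each, beside 4.85% and 2.92% of all genes past the filter. With hydroxyurea 0 of the 8 passed 1.5-fold without MS-275, beside 3.12% higher and 1.27% lower, and 0 with it, beside 4.84% and 1.03%.

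In the pathways that cytokine receptors use, genes past 1.5-fold with MS-275 in both backgrounds were 1 of 16 for NF-κB (lower), 1 of 6 for the IL-1 and Toll adaptors (lower) and 4 of 14 for JAK-STAT (3 higher and 1 lower). Of all genes past the filter, 4.85% were higher and 2.92% lower in both, and counts this small are not read as particular to a list. Of 16 NF-κB pathway genes past the filter (26 listed), NFKB1, which encodes the p50 precursor, was 2.68 and 2.49 times lower with MS-275, and no other passed 1.5-fold in both backgrounds. RELA was between 446 and 504 on all arrays. Of 6 adaptor genes of the IL-1 and Toll receptors, IRAK1 was 1.899 and 1.77 times lower. Of 14 JAK-STAT genes, STAT3 (2.53-fold and 1.76-fold), STAT4 (2.84-fold and 2.43-fold) and the LIF receptor gene LIFR (2.14-fold and 2.73-fold) were higher with MS-275, and SOCS6 was 1.73 and 1.86 times lower. STAT4 had 62.8, 79.7, 178 and 193, so it passed the filter through the arrays with MS-275 and the size of its fold is uncertain. Past the filter, hydroxyurea went with 0 genes past 1.5-fold in the JAK-STAT and adaptor lists, beside the shares of all genes just given for it. In the NF-κB list TRAF4 was 1.57-fold higher without MS-275, and with MS-275 REL was 1.54-fold higher and BCL3 1.54 times lower. Below the filter, STAT5B was 1.58-fold higher with hydroxyurea without MS-275. Of 19 chemokine system genes with other symbols that were named, CXCR4, the receptor of CXCL12, alone passed the filter. CXCR4 had 89.2, 108, 189 and 579 in the order above, while CXCL12 stayed dim at 43.5 to 61.4. For CXCR4, untreated cells were below the filter intensity, so the size of its fold over them is uncertain. CXCR1, a receptor of CXCL8, did not pass the filter and had 41.7, 36.0, 77.8 and 120 in the same order. It was 1.87-fold higher with MS-275 without hydroxyurea and 3.34-fold higher with it. With both drugs CXCR1 was 2.88-fold above untreated cells, and at these intensities its folds are uncertain.

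**Figure D4:**
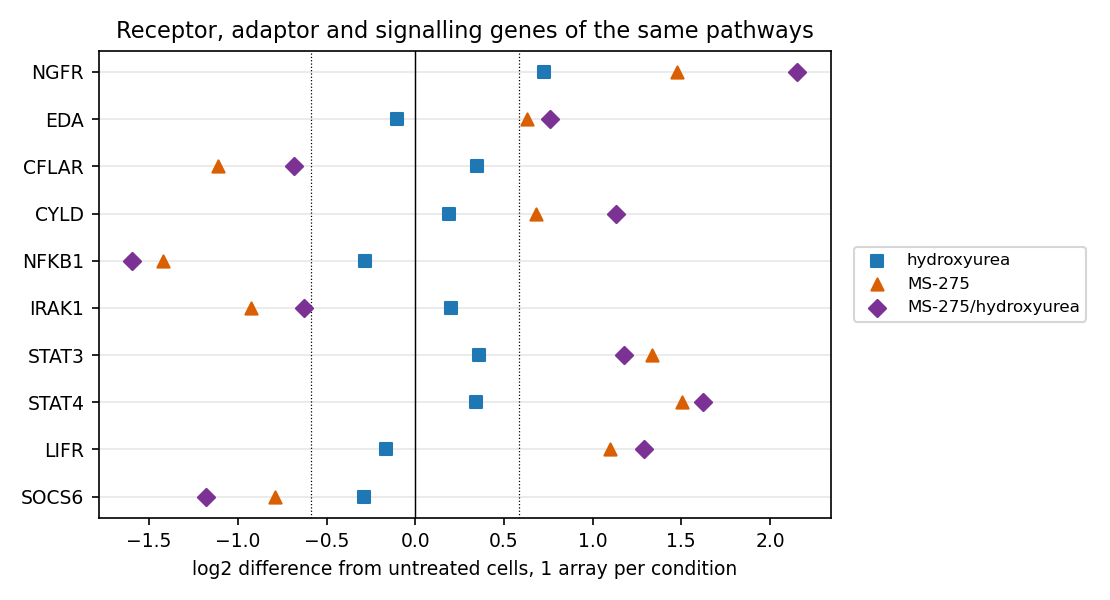
Log2 difference from untreated cells with hydroxyurea (squares), MS-275 (triangles) and MS-275/hydroxyurea (diamonds) for 10 listed genes of TNF receptor, NF-κB, IL-1 receptor and JAK-STAT signalling, each from 1 array per condition, with dotted lines at 1.5-fold. CFLAR, NFKB1, IRAK1 and SOCS6 are below 0 with MS-275. NGFR reaches 4.45-fold with both drugs, over an untreated value below the filter intensity.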

How the data were processed

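RNA of untreated, hydroxyurea-, MS-275- and MS-275/hydroxyurea-treated HCT116 cells was measured on 4 arrays, 1 per condition. The authors processed the arrays by RMA, and the deposited values are an intensity per transcript cluster on a linear scale (1.92 to 17815). RMA's version is not given in the sources used here. Array medians were 45.9 to 47.1. Of 53617 clusters, 16098 had 1 gene symbol in the platform's probe table, and the other 37519 are unnamed here. All 101 genes matched current RefSeq records by Entrez identifier with the same symbol.

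The members and lists were chosen with earlier results of these data known. The rule names the genes past the filter and 1.5-fold in any comparison, the 10 brightest, the death and decoy receptors where named, dim genes past 2-fold, and from each further list those past 1.5-fold in both backgrounds of a drug or past 2-fold. IL6R, CXCL2, IL11, IL17RC, CXCL8, CXCL3, CXCL5, IL18RAP, IL17REL, FADD, RELA, RELT, CXCL12, TNFRSF14-AS1, CCL22, TNF, IL31RA, TRAF4, REL, BCL3 and STAT5B were named after their values were seen. Python 3.11.15 (pandas 2.3.3, numpy 2.4.6, matplotlib 3.10.9) was used for log2 differences, counts and figures. The counting code was run on simulated arrays with planted changes. Their noise was assumed, so this run checks the code and not the precision of the measured differences. Alternatives were no filter, a filter at the 75th percentile (238.5), a 2-fold rule, the mean of a symbol's clusters, median centring, renewed quantile normalization and an offset of 32 before log2. With 4 arrays, precision is limited by their number.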

Additional observations from a re-analysis of the deposited data

Results flagged for a closer look

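A drug difference pointed one way without the other drug and the opposite way with it, by at least 0.2 on the log2 scale each, in 7 of the 20 genes examined. These were 3 of the 14 genes past the filter, beside 3.91% of all genes past it, and 4 of the 6 dim genes, which had been picked for passing 2-fold. Over all 87 dim genes of the set it was 16 (18.4%), beside 13.3% of all dim genes. With 1 array per condition the change of sign was not tested. MS-275 differences without and with hydroxyurea were -0.42 and 0.21 for IL17RB, -0.22 and 0.29 for CXCL2, 0.54 and -0.36 for CCL26, and -0.96 and 0.85 for CCL4. Hydroxyurea differences without and with MS-275 were -0.36 and 0.23 for IL18, -0.22 and 0.29 for CXCL2, -1.30 and 0.51 for CCL4, 0.30 and -1.01 for CXCL6, and -0.26 and 0.75 for IL18R1. For 1 gene, both patterns follow from the same 4 values, so that the entries of CXCL2 and of CCL4 are not separate observations. CCL26, CCL4, CXCL6 and IL18R1 are dim, and CXCL6 did not exceed an intensity of 14.8 on any array.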

How the results depend on the processing

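The counts in both backgrounds and against untreated cells were recomputed under 7 alternatives. Without the filter on dim genes, the count higher with MS-275 in both backgrounds moved from 1 to 4 (IL17RD with IL1RAP, IL7 and IL15), that higher with MS-275/hydroxyurea than untreated from 2 to 14, and that lower from 0 to 6. These are counts of 101 genes, beside 8.79% of all 14884 genes higher and 5.46% lower, and 3.55% higher with MS-275 in both backgrounds. With the 2-fold rule, the count higher with hydroxyurea in both backgrounds was 0 instead of 1, since IL17RB was at 1.86-fold in one of them. The other alternatives left the 6 counts within 1.5 times. The median log2 differences also depended on the filter. With the filter at the 75th percentile, passed by 7 genes, they were 0.29 for hydroxyurea and -0.37 for MS-275 against untreated cells. For hydroxyurea added to MS-275 the median was then 0.32. Over the 101 genes without a filter, these 3 medians were 0.002, -0.001 and 0.05. For the 14 genes past the filter, the 7 differences past 1.5-fold stayed past it under every scaling, cluster and offset alternative. For the 6 dim genes, 10 of 18 such differences were lost with the offset of 32 (all 3 of CCL4 and all 3 of CXCL6 among them), 0 were lost under the other 3 alternatives and 0 changed sign. With that offset, IL1RAP was at 0.65 and 0.94 with MS-275 and IL7 at 0.48 and 0.49 on the log2 scale. No paired analysis was possible because each condition has 1 array. For the same reason no array could be left out.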

Other observations

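Below the filter, some genes of epithelial cytokine biology had intensities near it and were lower on both arrays with MS-275. IL20RB, a receptor chain for IL-20 and IL-24, had 97.8 in untreated cells, 90.7 after hydroxyurea, 65.3 after MS-275 and 68.1 after the combination. IL17C, the epithelial ligand of IL17RE, had 97.7, 97.1, 78.7 and 74.3. In the other direction, IL15, a growth factor of NK cells, had 34.8, 33.1, 54.1 and 50.3, and IL1RN, the IL-1 receptor antagonist, had 39.6, 43.6, 48.4 and 64.6. All 4 genes were chosen after their values were seen, and at these intensities the folds are uncertain.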
